A study of Homo sapiens with 32 samples.

Results

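The regions described here are 2190 ZNF143 peak summits that lay 51 to 500 bp upstream of a protein-coding gene start, out of 16165 summits of that factor on chromosomes 1 to 22 and X (13.5%). A member was any line of the ZNF143 list whose nearest 5′ end of a protein-coding gene in GENCODE 44 lay on its downstream side, along the gene's strand, at that distance. No score, partner or sequence entered the choice. The remaining summits lay within 50 bp of a start (1752), 51 to 500 bp downstream of one (2202) or further than 500 bp from any (10021).

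The summits came from chromatin immunoprecipitation and sequencing (ChIP-seq), which recovers crosslinked DNA fragments with an antibody and locates where they pile up. All 32 samples were HEK_CloneZD29, a single clone of the human embryonic kidney line HEK293T. The labels of the ZNF143, SP1 and mock samples give its ZNF143 an inducible degron tag, which lets dTAGV-1 trigger breakdown of the protein, and the study's design text gives the same for the NRF1 and YY1 samples. Cells were untreated or received 50 nM dTAGV-1 (written 50nm in the labels) for 30 min. ZNF143, recovered by its HA tag, had 2 untreated and 2 treated samples, as did the mock precipitation, whereas SP1, NRF1 and YY1 had 4 of each. Each antibody had 1 list of summits, which gave a position and a score but no value per sample, so untreated and treated cells were not compared and no spread between replicates could be given. Every interval below is a 95% interval (Wilson for a share, Newcombe for a difference of shares) that covers counting error only.

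ZNF143 is a zinc finger activator that binds a conserved element in the promoters of small nuclear RNA genes and of many protein-coding genes, where it acts with the THAP11 protein and the cofactor HCFC1. Its known site has a core with the letters CCCANNATG, where N is any base, and a longer form has ACTACA ahead of that core. SP1 binds GC boxes, NRF1 binds a GC-rich palindrome in promoters of housekeeping and mitochondrial genes, and YY1 binds sites that often lie close to gene starts.

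The sequences below are reference sequence of hg38 and show what lay under high-scoring members. Each runs 5′ to 3′ along the strand of its gene over the summit and 50 bases to either side, and capitals mark every copy of CCCANNATG or ACTACA on either strand (a copy on the other strand shows as its reverse complement). The first set holds 6 high-scoring members with CCCANNATG and no annotated exon in the printed window, and not every higher-scoring member of that kind is shown.
FEM1A, chr19:4791541-4791641, + strand: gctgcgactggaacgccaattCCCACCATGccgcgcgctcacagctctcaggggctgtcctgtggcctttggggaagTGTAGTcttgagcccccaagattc
BOD1, chr5:173616700-173616800, - strand: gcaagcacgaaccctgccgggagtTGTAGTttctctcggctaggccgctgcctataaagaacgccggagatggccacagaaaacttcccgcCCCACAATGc
NDC1, chr1:53838555-53838655, - strand: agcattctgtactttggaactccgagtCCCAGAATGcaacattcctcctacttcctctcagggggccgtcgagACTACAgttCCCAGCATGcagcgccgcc
CCDC163, chr1:45500135-45500235, - strand: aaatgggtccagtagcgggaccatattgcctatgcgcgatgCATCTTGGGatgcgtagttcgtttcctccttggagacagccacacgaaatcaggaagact
TMTC3, chr12:88142170-88142270, + strand: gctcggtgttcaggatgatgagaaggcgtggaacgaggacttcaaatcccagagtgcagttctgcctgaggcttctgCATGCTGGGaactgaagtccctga
DCAKD, chr17:45061158-45061258, - strand: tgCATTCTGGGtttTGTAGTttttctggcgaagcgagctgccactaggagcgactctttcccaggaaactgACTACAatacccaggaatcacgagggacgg

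The second set holds 3 high-scoring members without CCCANNATG and with no exon in the window, followed by the nearer member of PSMC3 (score 5628), an example with no SP1, NRF1 or YY1 summit within 100 bp. Here too some higher-scoring members are not shown.
HDGF, chr1:156767295-156767395, - strand: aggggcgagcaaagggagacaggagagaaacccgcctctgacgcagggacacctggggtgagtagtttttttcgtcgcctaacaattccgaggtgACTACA
AP2S1, chr19:46851012-46851112, - strand: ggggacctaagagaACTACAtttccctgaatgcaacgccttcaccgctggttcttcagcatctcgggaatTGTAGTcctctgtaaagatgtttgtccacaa
CDK5, chr7:151058022-151058122, - strand: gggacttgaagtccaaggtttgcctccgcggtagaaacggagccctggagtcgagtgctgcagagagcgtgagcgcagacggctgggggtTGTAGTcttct
PSMC3, chr11:47426535-47426635, - strand: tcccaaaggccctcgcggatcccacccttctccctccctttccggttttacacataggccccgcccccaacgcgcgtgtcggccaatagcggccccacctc

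NDC1, a membrane nucleoporin, held ACTACA and a CCCANNATG copy next to each other, and a second CCCANNATG copy on the far side of its summit. DCAKD, named for a dephospho-CoA kinase domain, held the pair on the other strand and a second ACTACA. AP2S1, a subunit of the clathrin adaptor AP-2, had no CCCANNATG but had 2 copies of ACTACA, 1 on each strand, each with CCC starting 9 bases after its first base. The ACTACA copies at FEM1A and BOD1 had CCC in that place too, as did the copy at CDK5, a kinase best known from neurons. The copy at HDGF, a heparin-binding growth factor, ended on the last base of the window, so that place lay outside the window. CCDC163 and TMTC3 held the core without ACTACA, and PSMC3, an ATPase of the proteasome, held neither.

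The authors' score is a −log10 p-value or q-value (which of the 2 is not stated), so it rises with sequencing depth as well as with enrichment, and it was compared only within the ZNF143 list. Over the members it ran from a median of 22.7 (quartiles 6.95 and 1157) to a highest value of 56725. The distribution had a low and a high group. Scores under 10 made up 34.9% of members, scores of 10 to 100 made up 31.0%, scores of 100 to 1000 only 8.49%, and 562 members (25.7%, interval 23.9 to 27.5) reached 1000 or more. The same high group was seen within 50 bp of starts (27.5%, a difference of -1.85 percentage points, interval -4.64 to 0.919). It was smaller 51 to 500 bp downstream (9.36%, difference 16.3 points, 14.1 to 18.5) and further away (6.77%, difference 18.9 points, 17.0 to 20.8). The median scores there were 34.5, 8.81 and 11.8.

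**Figure D1:**
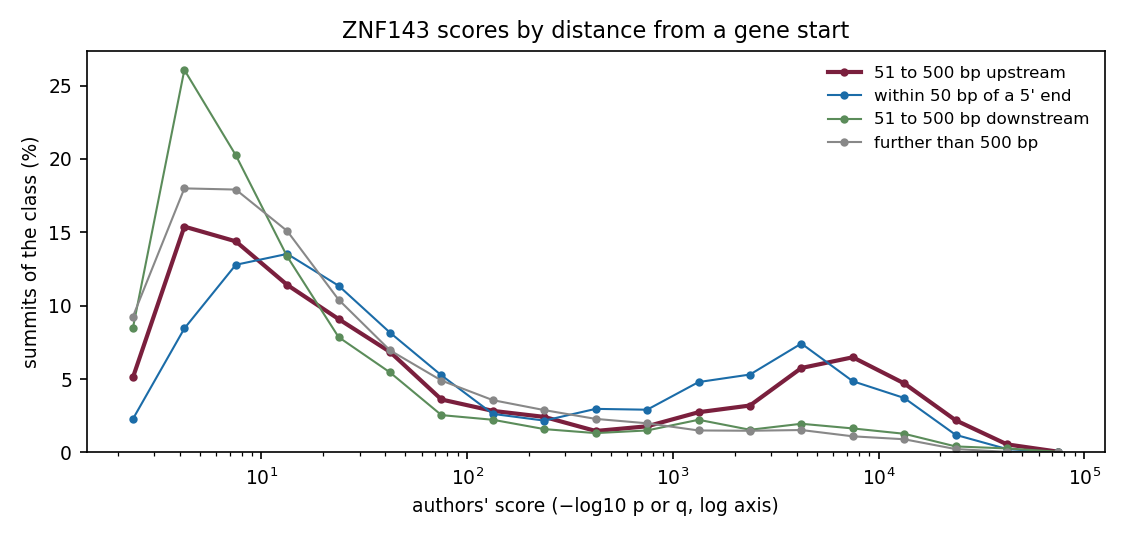
Share of ZNF143 summits (y axis, percent of each class) by the authors' score on a log axis (x axis), for the 4 classes of distance from a protein-coding 5′ end. Summits upstream of and at gene starts show a second rise above 1000, where 25.7% and 27.5% of them lie, against 9.36% downstream and 6.77% further away.

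Members crowded toward the gene. Of the 2190, 672 lay 51 to 100 bp upstream, 423 further up to 150 bp, 312 up to 200 bp, 377 up to 300 bp, 235 up to 400 bp and 171 over 400 and up to 500 bp, with a median distance of 150.5 bp. The median score was lower in each class further from the start, at 76.3, 28.4, 19.2, 12.4, 10.1 and 6.95. The share with a score of 1000 or more was 38.5% (interval 34.9 to 42.3) in the nearest class and 8.19% (4.94 to 13.3) in the furthest. High scores were nevertheless present in every class. BOD1, which acts in chromosome biorientation, scored 49308 at 91 bp, FEM1A, a substrate receptor of a ubiquitin ligase, 56725 at 143 bp, and CDK5 35121 at 175 bp. AP2S1 scored 41637 at 216 bp, FBXL19, an F-box protein that binds CpG islands, 42229 at 400 bp, and HDGF 43834 at 420 bp. The other 4 of the 10 highest were VCPIP1 (37572 at 147 bp), a deubiquitinase, UNK (36586 at 122 bp), PEMT (35465 at 67 bp), which methylates phosphatidylethanolamine, and CRTC2 (34315 at 102 bp), a coactivator of CREB. The second-highest members of their distance classes were CHMP4B (30668 at 169 bp), SMPD3 (33845 at 233 bp), GSK3A (25008 at 327 bp) and CYB5D1 (11980 at 442 bp).

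**Figure D2:**
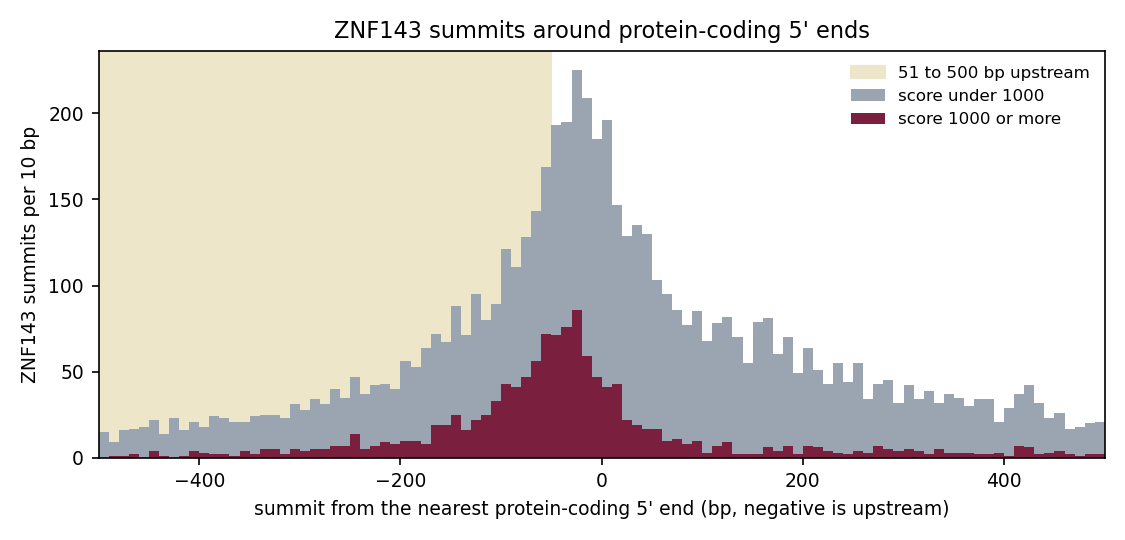
ZNF143 summits per 10 bp (y axis) by their position from the nearest protein-coding 5′ end (x axis, bp, negative upstream), with scores of 1000 or more in dark red, all other scores stacked behind them in grey, and the range of the members shaded. The counts climb across the shaded range toward the start, and the dark part climbs with them.

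The limits of the range cut through the slope in counts, whereas the median score was higher just inside the near limit than just outside it. The 16 members at 51 bp, among them DDX51, GEMIN5, NDUFV2, TIMM21 and UBE2N, had a median score of 335 (4.35 to 13926), and the 22 summits at 50 bp, just outside, had a median of 43.5 (2.95 to 12488). Over 5 bp to either side, the medians were 185 for 88 members and 65.2 for 103 summits outside. At the far limit, ASB7, RAP1GDS1 and RNF187 had summits at 500 bp with scores of 5.65 to 10.6, and FLVCR1 had a summit 1 bp further with 6.05.

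Most members lay outside other genes. In 1343 cases (61.3%) the summit lay in no other annotated gene, in 364 (16.6%) in an intron, in 451 (20.6%) in a noncoding or untranslated exon and in 32 (1.46%) in a coding exon. The gene start used here is the outermost annotated end of the gene. Another annotated transcript of a protein-coding gene started within 50 bp of 140 members (6.39%). The start of a gene that is not protein-coding lay within 50 bp of 123 members (5.62%), a long noncoding RNA in 111 of them.

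SP1, NRF1 and YY1 summits were common beside the members, and least common at the members furthest upstream. Within 100 bp, 1400 members had an SP1 summit (63.9%, interval 61.9 to 65.9), 1273 a YY1 summit (58.1%, 56.0 to 60.2) and 1043 an NRF1 summit (47.6%, 45.5 to 49.7). Members had fewer partners than summits within 50 bp of starts, by -17.9 points for SP1 (-20.5 to -15.1), -7.91 for NRF1 (-11.0 to -4.77) and -11.7 for YY1 (-14.6 to -8.68). Against summits 51 to 500 bp downstream, members had 19.6 points more SP1 (16.7 to 22.5) and 16.9 points more NRF1 (14.0 to 19.7), whereas YY1 differed the other way (-3.68 points, -6.57 to -0.782). The lists differ in length, with 126181 SP1, 39180 NRF1 and 106578 YY1 summits on these chromosomes, so shares of different partners cannot be ranked as occupancy.

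The 3 partners changed differently with distance. SP1 was present at 86.5% of members at 51 to 100 bp (interval 83.7 to 88.8) and 24.6% over 400 bp upstream (18.7 to 31.5). NRF1 was present at 64.9% (61.2 to 68.4) and 24.0% (18.2 to 30.9) in the same classes. YY1 was present at 61.3% (57.6 to 64.9) and 51.5% (44.02 to 58.8), so its share changed least of the 3. All 3 partners lay within 100 bp of 539 members (24.6%) and none of them within 100 bp of 307 (14.0%, 12.6 to 15.5). Members with none went from 4.61% in the nearest class to 32.2% in the furthest.

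**Figure D3:**
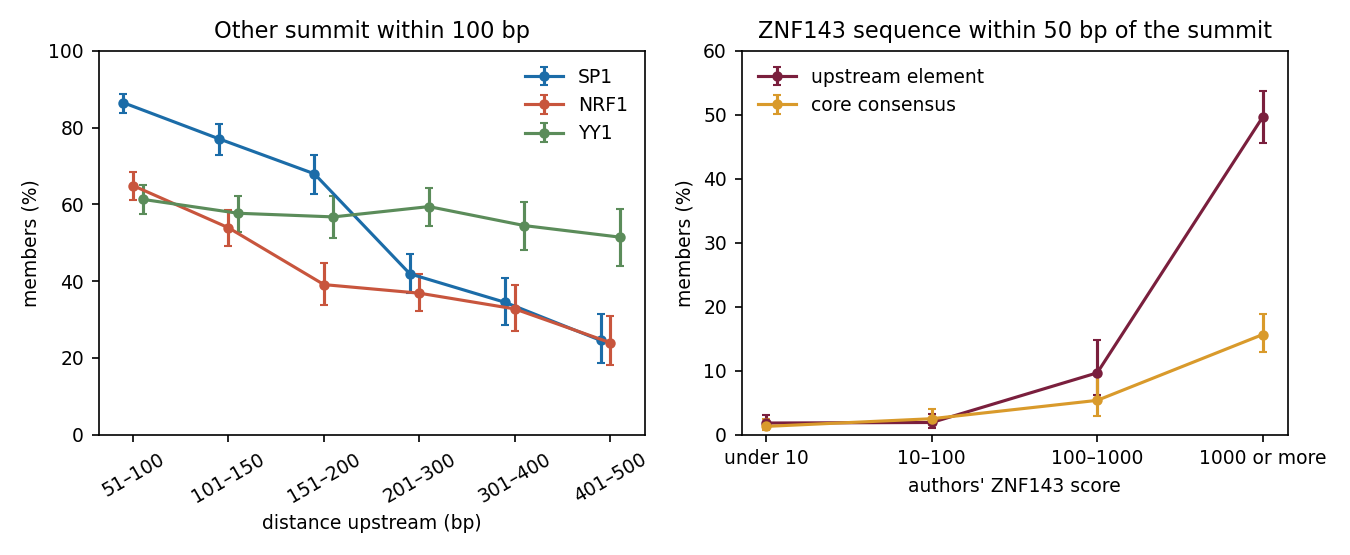
Left, percent of members (y axis) with an SP1, NRF1 or YY1 summit within 100 bp, by distance upstream of the gene (x axis, bp). Right, percent of members (y axis) with ACTACA (upstream element) or CCCANNATG (core consensus) within 50 bp, by the authors' ZNF143 score (x axis). Points are shares and bars Wilson 95% intervals. SP1 drops from 86.5% to 24.6% with distance while YY1 stays between 51.5% and 61.3%, and ACTACA reaches 49.6% among scores of 1000 or more.

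Where a partner was near, SP1 tended to sit on the gene side of the ZNF143 summit. Of the 1386 SP1 summits within 100 bp and not on the same base, 928 lay on the gene side (67.0%, interval 64.4 to 69.4), with a median offset of 17 bp toward the gene. For NRF1 the gene side held 612 of 1036 (59.1%, 56.1 to 62.0), with a median offset of 14 bp. For YY1 the sides were level, with 623 on the gene side and 634 on the far side and a median offset of 0. The gene-side share of SP1 was 78.3% (72.3 to 83.3) among members over 150 and up to 200 bp upstream and 59.1% (54.99 to 63.0) among those at 51 to 100 bp. These SP1 and YY1 partners were strong in their own lists, with medians at percentiles 93.6 and 93.0 of score, and NRF1 partners had a median at percentile 83.0. Within 500 bp nearly every member had each partner, 98.5% SP1, 97.5% YY1 and 92.1% NRF1.

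**Figure D4:**
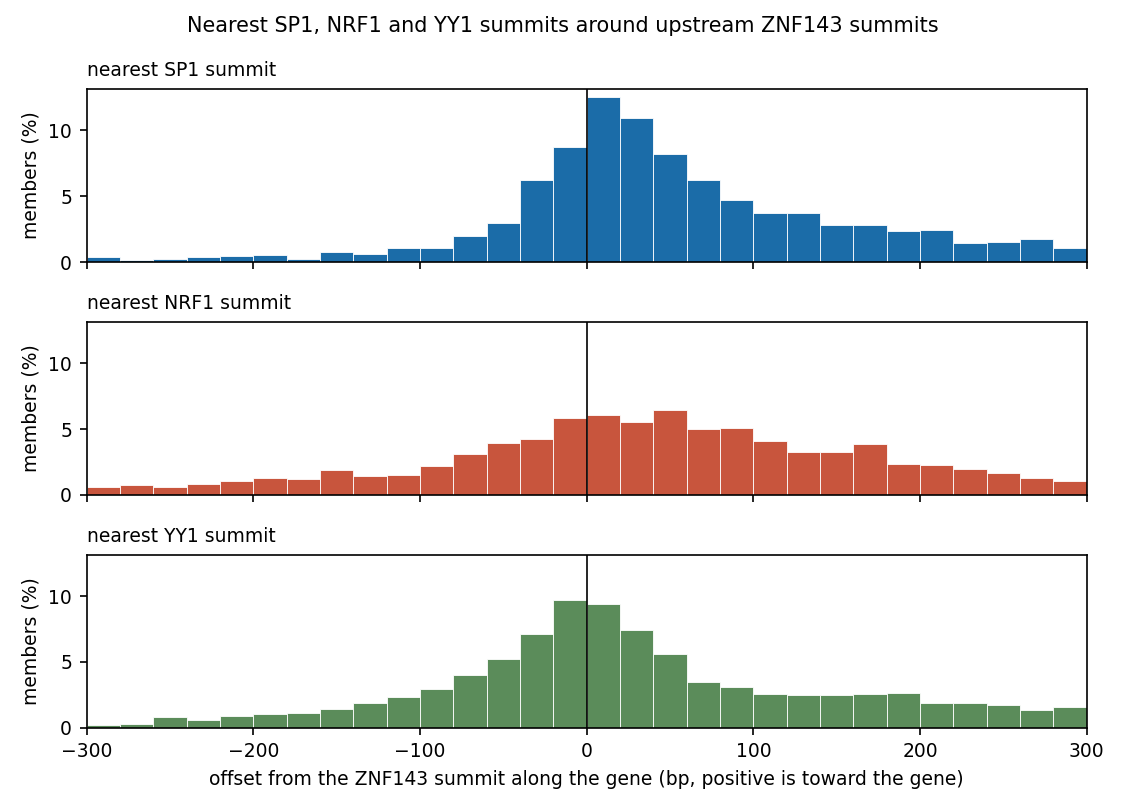
Percent of members (y axis) by the offset of the nearest SP1, NRF1 or YY1 summit from the ZNF143 summit along the gene (x axis, bp, positive toward the gene, in steps of 20 bp). SP1 is shifted to the gene side, with a median of 17 bp within 100 bp. Over all members together, YY1 is centred on the ZNF143 summit, with a median of 0.

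Scores were higher where more partners were near. Median scores were 7.64 with no partner, 12.6 with 1, 30.5 with 2 and 68.8 with all 3. Scores of 1000 or more were found in 31.4% of members with SP1 and 15.4% without (difference 16.0 points, 12.4 to 19.4), in 34.1% with NRF1 and 18.0% without (16.2 points, 12.5 to 19.8), and in 29.8% with YY1 and 20.0% without (9.82 points, 6.16 to 13.4). Distance from the start differed along with both, and its part in these differences was not tested. Of the 10 highest members, 7 had all 3 partners within 100 bp. FEM1A had an SP1 summit 23 bp and an NRF1 summit 42 bp on the far side and a YY1 summit 59 bp on the gene side, the last in the top of its list at percentile 99.98. The highest members with no partner were TBC1D31 (14275 at 53 bp), POLDIP3 (8120 at 98 bp), whose product binds a DNA polymerase subunit, and HACD2 (7349 at 405 bp), an enzyme of very long chain fatty acid elongation. For these 3 genes the nearest partner summit lay 282, 142 and 113 bp away.

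The letters of the longer ZNF143 site separated the high scores from the low ones. ACTACA lay wholly within 50 bp of 324 members (14.8%, interval 13.4 to 16.3), against 2.42% of windows of the same length 400 bp to either side and 3.55% of windows at matching distances upstream of all protein-coding genes. Among members with scores under 10 the share was 1.83% (1.09 to 3.05), at 10 to 100 it was 1.92% (1.12 to 3.25), at 100 to 1000 it was 9.68% (6.21 to 14.8), and at 1000 or more it was 49.6% (45.5 to 53.8). In the other direction, 279 of the 324 members with ACTACA scored 1000 or more (86.1%, 81.9 to 89.5), and their median was 6186 against 14.6 for the 1866 members without it. The intervals of both classes under 100 held the 2.42% of the flanking windows.

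The spacing of ACTACA to the core was also regular. CCC began 9 bases after the first base of ACTACA in 266 of the 324 members (82.1%, 77.6 to 85.9), taking the copy nearest the summit, and in 3 of 100 copies in the flanking windows (3.00%, 1.03 to 8.45). Members with that spacing had a median score of 6780, and the other members with ACTACA had 558. ACTACA pointed along the gene's strand in 203 members (62.7%, 57.3 to 67.7), lay a median of 21 bp from the summit and a median of 119 bp upstream of the gene start. It was present in 22.9% of members at 51 to 100 bp and in 5.85% over 400 bp upstream. Summits 51 to 500 bp downstream held it in 5.09% of cases, 9.71 points fewer (7.97 to 11.5), summits within 50 bp of starts in 12.04% (2.75 points, 0.603 to 4.87), and distant summits in 14.2% (0.614 points, -0.972 to 2.30).

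The core was rarer than ACTACA, but both stood out from the flanking windows to the same degree. The share of members was 6.10 times that of the flanking windows for CCCANNATG and 6.11 times for ACTACA. CCCANNATG lay within 50 bp of 125 members (5.71%, 4.81 to 6.76), against 0.936% of the flanking windows and 1.38% of the windows upstream of all genes. ACTACA also lay within 50 bp of 53 of the 125. Of the 125, 88 (70.4%) scored 1000 or more, against 22.95% of the other members, a difference of 47.4 points (38.7 to 54.95). Only the core copy nearest the summit was used here. ACTACA stood ahead of that copy on its strand in 42 of the 125. In 41 of the 42 the core began 9 bases after the start of ACTACA, the spacing seen at DCAKD above. NDC1 was not among the 42, because its pair held the copy further from the summit. Those 42 had a median score of 8374, and the other 83 had 1292. Either sequence was present at 396 members (18.1%, 16.5 to 19.7), and the 1794 members with neither had a median of 13.8. At 1000 or more, 317 of the 562 members had either (56.4%, 52.3 to 60.4). A match of letters is a description of the window and does not show where the protein bound, and no match says only that these exact letters were not there.

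Letters known from other promoter factors were searched in the same windows on both strands. The GC box GGGCGG was at 31.6% of members, against 22.2% of flanks and 23.4% of windows upstream of all genes, and at 35.8% of members with an SP1 summit against 24.3% of those without. The NRF1 letters CGCATGCG were at 1.00%, against 0.0913% of flanks and 0.552% upstream of all genes, in 20 members with an NRF1 summit and 2 without. The YY1 letters ANATGGCG, which can share bases with CCCANNATG, were at 2.69%, against 1.64% of flanks and 0.968% upstream of all genes, in 50 members with a YY1 summit (3.93%) and 9 without (0.981%). CCGGAAG, read by ETS factors, was at 8.68%, against 1.83% of flanks and 2.62% upstream of all genes, and at 21.5% of summits within 50 bp of starts. CCAAT was at 15.3%, against 9.02% of flanks and 15.4% upstream of all genes. TGACGTCA was at 1.10%, against 0.183% of flanks and 0.526% upstream of all genes. TATAAA was at 1.32%, against 2.65% of flanks and 4.09% upstream of all genes. Between members scoring under 10 and those at 1000 or more, GGGCGG went from 31.9% (28.7 to 35.3) to 27.2% (23.7 to 31.0), CCAAT from 13.0% (10.8 to 15.5) to 17.8% (14.9 to 21.2) and CCGGAAG from 5.24% (3.87 to 7.05) to 8.90% (6.81 to 11.5), against the change from 1.83% to 49.6% in ACTACA.

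The members belonged to 2120 of 19970 protein-coding genes (10.6%). Of these genes, 1731 (81.7%) had ZNF143 summits within 500 bp of the start only on the upstream side, 83 had another within 50 bp of the start and 317 another downstream. A pair of members lay upstream of 70 genes, always within 1 called peak and a median of 257 bp apart, and 2050 genes had a single member. In 59 of the 70 pairs both summits scored under 100. Both reached 1000 in 6 pairs, at APBA3, FAM168A, MAP3K10, PSMC3, THAP11 and ZNF260. Counts of genes in the lists below are read against the 10.6% of all protein-coding genes, and the lists are symbol patterns, so they are descriptions of gene families and support nothing on their own.

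Of 22 gene lists, 11 had an interval wholly above the 10.6% of all protein-coding genes, 10 had an interval that held it, and the olfactory receptors lay below, with 1 of 416 genes (OR1F1, score 8.36). In those 11 lists a ZNF143 summit anywhere within 500 bp of the start was also more common. It was found for 43.9% (ubiquitin enzymes) to 76.9% (mitochondrial import) of genes, against 27.4% of all protein-coding genes. Of the genes with such a summit, 35.0% (mitochondrial import) to 46.9% (respiratory complexes II to V) had one upstream, against 38.7% for all. The higher counts in these lists therefore do not show a preference for the upstream side. The core of the spliceosome had 16 of 50 genes (32.0%, interval 20.8 to 45.8), led by SF3B5 at 9552 and the Sm-like protein gene LSM10 at 5332. Nucleoporins, which line the nuclear pore, had 6 of 23 (26.1%, 12.5 to 46.5), led by NUP205 (12244) and NUP153 (10135). Proteasome subunits had 10 of 48 (20.8%, 11.7 to 34.3) and the ubiquitin enzymes 23 of 114 (20.2%, 13.8 to 28.5), among them USP35 (12860) and USP48 (11302). Mediator and Integrator, which link factors to RNA polymerase II and process small nuclear RNA, had 10 of 46 (21.7%, 12.3 to 35.6), with MED11 at 13038. General transcription factors and SNAPc had 12 of 67 (17.9%, 10.55 to 28.7), an interval that just held the background, led by GTF2E1 (5255) and TAF12 (4617).

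Cytosolic and mitochondrial ribosomal protein genes differed in how often ZNF143 lay upstream. Cytosolic ribosomal protein genes had an upstream summit in 25 of 87 cases (28.7%, 20.3 to 39.0) and mitochondrial ones in 5 of 78 (6.41%, 2.77 to 14.1), a difference of 22.3 points (10.9 to 33.2). A ZNF143 summit anywhere within 500 bp of the start was found for 67.8% and 66.7% of them (difference 1.15 points, -12.9 to 15.3), against 27.4% of all protein-coding genes. RPL23A (11211 at 146 bp), RPL32 (10364 at 81 bp) and RPS13 (10035 at 106 bp) were among the high members of the cytosolic list, and MRPL17 led the mitochondrial list with 221 at 298 bp. No mitochondrial ribosomal member reached 1000. Translation initiation factors had 12 of 55 genes (21.8%, 12.9 to 34.4), among them EIF1B (8094), EIF2S2 (7137) and the cap-binding protein gene EIF4E (4947).

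Other mitochondrial lists had high members. Complexes II to V of the respiratory chain and their assembly factors had 15 of 60 genes (25%, 15.8 to 37.2), with the ATP synthase subunits ATP5PO (14571 at 64 bp) and ATP5F1D (13724 at 54 bp) and the cytochrome oxidase subunit COX7C (13704 at 64 bp) at the top. Protein import had 7 of 26 (26.9%, 13.7 to 46.1), with TIMM21 (13551) and TIMM13 (11490). Complex I had 5 of 37 (13.5%, 5.91 to 28.0), led by NDUFB10 at 6720. In the cell cycle lists, DNA replication had 8 of 34 genes (23.5%, 12.4 to 40.0), led by the primase subunit PRIM1 (7065) and the helicase subunit MCM3 (4567). The kinetochore list had only BUB3 (15679 at 261 bp) and BUB1B (8653 at 64 bp) of 44 genes, both checkpoint genes and both with CCCANNATG and ACTACA.

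Genes named ZNF, most of them DNA-binding zinc finger proteins, were the largest list, with 112 of 508 genes (22.05%, 18.7 to 25.9) and 115 members. Their median score was 2921, and 64 (55.7%) reached 1000, against 24.0% of the other 2075 members (difference 31.7 points, 22.3 to 40.6). A YY1 summit lay within 100 bp of 92 of them (80.0%), 23.1 points more than at other members (14.6 to 29.7). ACTACA was present at 34 (29.6%), 15.6 points more (7.86 to 24.6). SP1 and NRF1 were also more common at members of this list, at 73.9% and 60.9%, against 63.9% and 47.6% of all members. Members of this list lay a median of 94 bp upstream, against 150.5 bp for all members. The part of distance in these contrasts was not tested. The highest were ZNF140 (24804 at 185 bp), ZNF337 (16931 at 62 bp), ZNF226 (13353 at 96 bp) and ZNF181 (12126 at 59 bp), each with all 3 partners within 100 bp. These genes lie in clusters of similar copies, 58 of the 115 members were on chromosome 19, and neighbouring genes of that kind can share sequence.

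**Figure D5:**
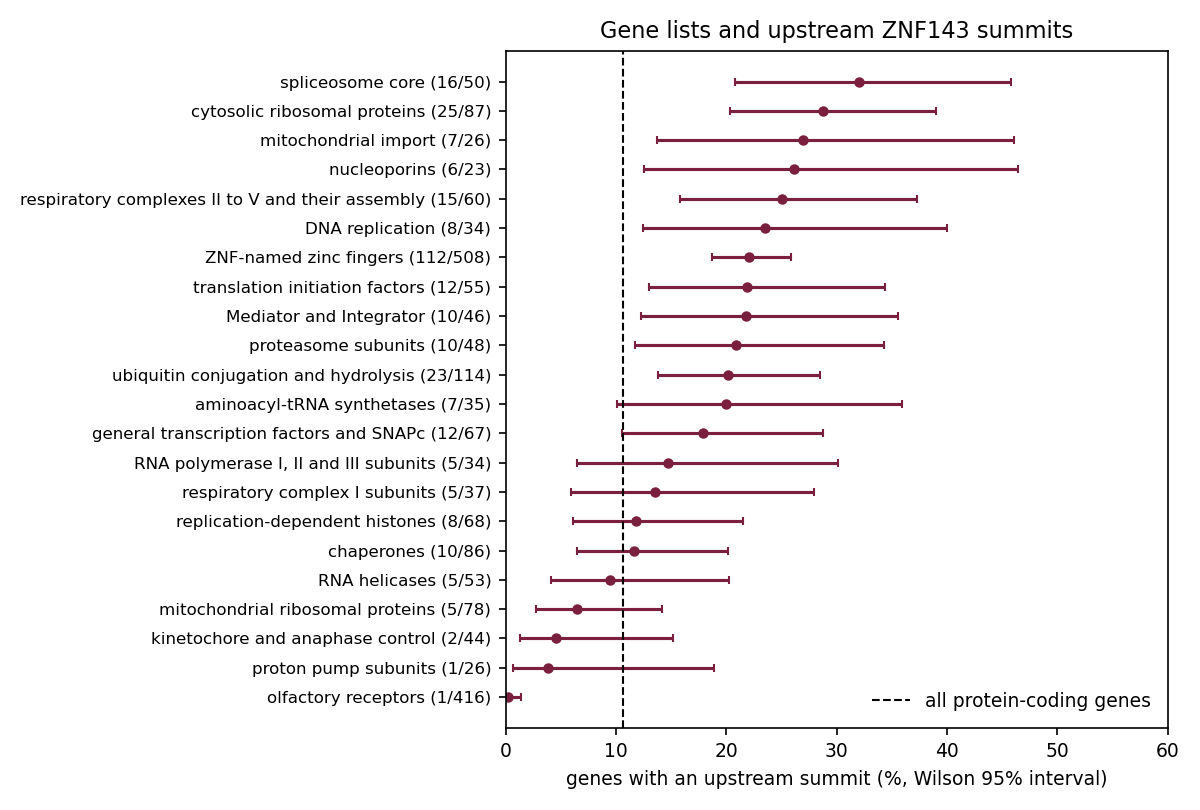
Percent of the genes of each list with a ZNF143 summit 51 to 500 bp upstream (x axis; points, with Wilson 95% intervals as bars, and counts beside the names), with the share of all protein-coding genes as a dashed line at 10.6%. The spliceosome core stands highest at 32.0% and olfactory receptors lowest, with 1 of 416 genes.

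The remaining lists lay near the background or held few genes. RNA polymerase subunits had 5 of 34 genes (POLR2E, 6955), aminoacyl-tRNA synthetases 7 of 35, chaperones 10 of 86 (DNAJC17, 12659, and HSP90B1, 10247), replication-dependent histones 8 of 68, none of them above H2BC6 at 45.8, RNA helicases 5 of 53 (DHX33, 9626) and proton pump subunits 1 of 26 (ATP6V1F, 3633).

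Genes of the factors themselves were among the members. THAP11 had a pair of members, 9117 at 283 bp and 7616 at 120 bp, with a YY1 summit 3 bp from the first. The HCFC1 member scored 38.5 at 180 bp, NRF1's 9.77 at 75 bp and YY1's 6.42 at 214 bp, all below the high group. The ZNF143 gene had no member, and its summit lay 450 bp downstream of its start, with a score of 4395. YY1 also had a summit 413 bp downstream of its start, which scored 12.2.

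Genes in head-to-head pairs share the stretch between their starts. An opposite-strand protein-coding start lay within 1000 bp of the gene start, on the member's side, for 120 members (5.48%, 4.60 to 6.51), against 8.56% of all protein-coding genes. By the rule a summit between such a pair went to the nearer start, which shortens the range in which a member could lie. The start of a gene that is not protein-coding lay there for 381 further members (17.4%, 15.9 to 19.0), against 8.09% of all genes. Members between coding starts had a median score of 117, against 21.2 beside another gene type and 20.8 with neither. The gap between the coding starts had a median of 294.5 bp, and these members lay a median of 34.2% of it from the nearer start. The rule bounds that share on both sides, by the least distance allowed for a member and by the middle of the gap. That share therefore cannot show a preferred position within the gap. Scores were higher near starts among all members, and the part of distance in the contrast of median scores was not tested. The CCDC163 member shown above (30233 at 106 bp) lay between its start and that of MMACHC, a gene of cobalamin processing, 221 bp apart, with SP1 6 bp, YY1 22 bp and NRF1 68 bp away.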

How the data were processed

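Values were the −log10 scores in the deposited summit lists, taken as p-values or q-values because the layout and values are those of a MACS-type caller, and which of the 2 is not stated. Per the submitters' processing notes, cutadapt, Bowtie2, SAMtools 1.16.1, MACS3 and bedtools were used with hg38, in no stated role. Per the labels, the ZNF143 and SP1 lists stand for untreated and treated samples alike. The NRF1 and YY1 lists were assigned by the antibody in their names. Whether samples were pooled is not given in the sources used here, and depth is unknown.

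Distances used GENCODE 44 genes on hg38, with Python 3.11.15, numpy 2.4.6, pandas 2.3.3 and scipy 1.17.1, and 5 summits tied between starts went to the lower coordinate. A partner was a summit within 100 bp. Motifs were exact matches lying wholly within 50 bp, on either strand. Alternatives changed the distances, the set of starts, the scores kept and the summits per peak. Code was tested on simulated positions. No test was run, since summits and genes are not replicates.

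Members and lists were chosen with earlier results of these data known. Named genes were the 10 highest scores, the 2 highest per distance class, the 3 highest with all and with no partners, the highest of each list, those at the limits and pairs, and the factors' own genes. The share of ACTACA over all members, its spacing and the score classes were chosen after seeing the data. Signal tracks and mock samples were not used here. Some genes that the rule for named genes selects are not reported here.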

Additional observations from a re-analysis of the deposited data

How the results depend on the processing

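Of 53 recalculations of 11 results, 17 kept a share or median inside its 95% interval, or a count within 1.5 times. No paired analysis was possible because the lists hold no value per sample. The top 50% of each list by score left 1298 summits and 1280 genes, and moved the median score to 277.6, the distance to 125 bp, SP1 to 73.4%, NRF1 to 52.8%, YY1 to 62.2%, no partner to 9.40%, CCCANNATG to 8.63%, ACTACA to 23.8% and head-to-head starts to 25.04%. Starts of all annotated transcripts gave a median score of 18.0, a distance of 138 bp, SP1 61.7%, NRF1 43.7% and no partner 16.1%. With 1 summit per peak the median score was 31.4, the distance 140 bp, NRF1 45.4%, YY1 47.4%, no partner 19.7% and ACTACA 17.2%. Partners within 50 bp gave SP1 45.4%, NRF1 28.0%, YY1 40.2% and none 30.4%, and within 250 bp 88.1%, 78.95%, 85.3% and 3.01%. Motifs within 25 bp gave 3.29% for CCCANNATG and 8.36% for ACTACA, and within 100 bp 7.35% and 18.6%. CCCANAATG gave 2.24%, and head-to-head starts within 500 bp 20.0%. Alternatives for ACTACA were chosen after seeing the data. Depth per sample and the number of reads behind a summit are unknown, so a missing partner may be a summit below the calling limit. Only 3 members lay where the NRF1 or YY1 peak numbers skip runs of at least 10.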

Other observations

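A 5′ end of a microRNA gene lay within 50 bp of 4 members, whose scores were 129 at BTBD1 (MIR4515, 3 bp from the summit), 15.5 at NOTCH1 (MIR4674, 1 bp), 12.9 at RNF185 (MIR3928, 20 bp) and 6.95 at WSB1 (MIR4522, 16 bp). The NRF1 and YY1 members each lay inside the annotated span of a long noncoding RNA, as did those of FBXL19 and HACD2.

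Of the 2190 members, 1372 were the only summit of their peak (median score 27.0), 477 the highest summit of a peak with several (55.6) and 341 a lower one (6.82). SP1 summits lay within 100 bp of 69.8% of the single ones and 54.0% of those in peaks with several summits. The GC content within 50 bp of the summit had a median of 64.4% for members, 66.3% within 50 bp of starts, 69.3% downstream and 51.5% further away.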
